A study of Mus musculus with 6 samples.

Results

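The matrix metalloproteases (MMPs), the ADAMTS and ADAMTS-like proteins, and the tissue inhibitors of metalloproteases (TIMPs) were examined in mouse embryos and in cells carrying the VEGF receptor Flk1. Members were all probe sets whose only gene symbol in the platform annotation names an MMP, an ADAMTS with a number, an ADAMTS-like protein or TIMP1 to TIMP4. There were 78 such probe sets of 45101 on the array, for 42 genes of 18193 with a symbol of their own. A further 9 genes of these families had no probe set of their own in the annotation and were not analysed here. The 6 Affymetrix arrays came from ICR mouse material at 8.5 days post coitum, the 3 to 4 somite stage before blood circulates. They formed 3 groups of 2 arrays each: Flk1-positive cells, Flk1 knockout (Flk1 KO) embryos and wild-type (WT) embryos. Embryos were the embryo proper, and total RNA was measured. Flk1 is the protein of the gene Kdr. The series design also names Flk1+/GFP embryos, while the genotype label of the cells gives only that they are positive for Flk1. Whether the cells also differ from WT embryos in genotype cannot be told apart from the group. How the cells were selected, what the knockout allele is, and whether animals were pooled are details that no label used here gives. The labels name no separate animals or pools behind the arrays of a group, so the spread that p-values measure is that between these samples and may be technical.

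MMPs are zinc-dependent enzymes that cut collagens, gelatins and other matrix proteins. Most are secreted as inactive precursors, and the membrane-type members stay at the cell surface. ADAMTS enzymes are secreted relatives with thrombospondin repeats. One branch cuts large proteoglycans such as versican, and another trims procollagens. ADAMTS-like proteins have the repeats without the catalytic domain. TIMPs bind the active site of these enzymes, and TIMP3 is held in the matrix, inhibits several ADAMTS enzymes and can block VEGF binding to Flk1. In growing vessels these proteins are known for opening the basement membrane and for remodelling the matrix of the heart.

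Of the 42 genes, 26 lay above the background level in at least 1 group and 17 in all 3 groups, by the brightest probe set of each gene. Of all 18193 genes, 13031 lay above it in at least 1 group. The background level was a signal of 57.4, taken from olfactory and vomeronasal receptor probe sets. Signals are the deposited linear values. Differences are on the log2(signal + 21.6) scale, written as the log2 value ± SE (limma, 2 arrays in each group), and understate the change of dim genes. In Flk1-positive cells 9 of the 31 member genes tested were higher than in WT embryos (Timp1, Timp3, Mmp14, Mmp2, Mmp9, Adamts1, Adamts4, Adamts5 and Adamts9) and 4 were lower (Timp4, Mmp11, Adamts15 and Adamts20). Over all 14961 genes tested, 12.5% were higher and 18% lower in that comparison. The 2 cell arrays lay above both WT arrays for 10 of the 31 (30.5% of all genes) and below both for 8 (42.1% of all genes). The median difference was 0.08 over the members and -0.09 over all genes tested. In Flk1 KO embryos none of the 31 passed the limma test against WT embryos (adjusted p of 0.237 or more), while 0% of all genes were higher and 0.14% lower. Before adjustment, 2 of the 31 had higher and 3 had lower values with a p under 0.05, where 2.61% and 3.68% of all genes did. The other 11 genes were too dim to be tested.

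**Figure D1:**
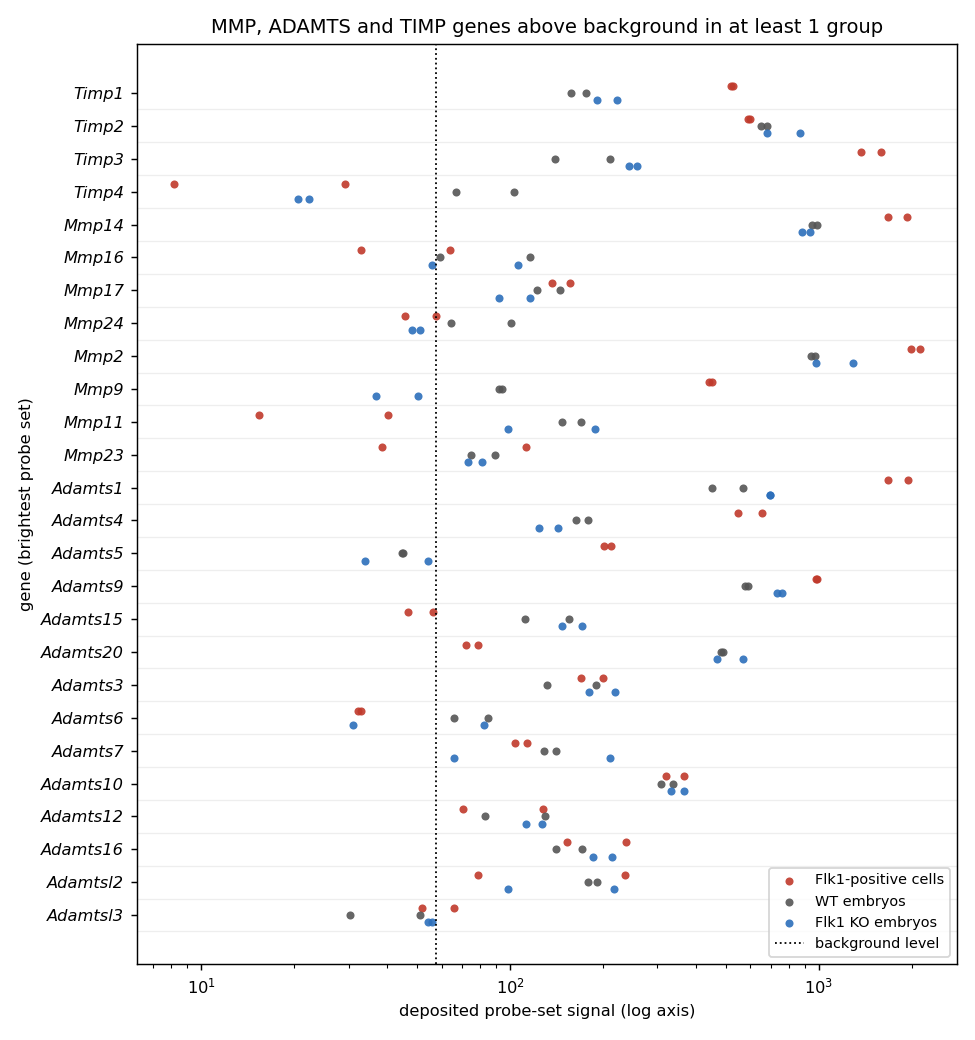
Deposited probe-set signal (log axis) of the 26 member genes above background in at least 1 group, with a point for each of the 6 arrays and the background level of 57.4 as a dotted line. Flk1-positive cells lie to the right of both embryo groups for Timp3, Mmp9 and Adamts1, and to the left for Adamts20.

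The 16 genes at or below background in every group had signals between 1 and 73.1 on single arrays. They were all 4 collagenases measured (Mmp1a, Mmp1b, Mmp8 and Mmp13), the stromelysins Mmp3 and Mmp10, the matrilysin Mmp7, the macrophage elastase Mmp12, the enamel protease Mmp20, Mmp19, Adamts8, Adamts18, Adamts19, Adamtsl1, Adamtsl4 and Adamtsl5. In the RefSeq gene table, 10 MMP genes follow each other on chromosome 9 with no other protein-coding gene between them. Of these, 9 were measured (Mmp27 was not analysed here), and none lay above background in any group. The start-site sequences of these genes and of the detected members that had one are set side by side here because their letters differ. RefSeq promoter entries (GRCm38.p6) were matched by symbol for 27 member genes, and the 250 bases upstream of the start were searched on both strands. The motifs were the AP-1 site (TGANTCA, where N is any base), the Sp1 box (GGGCGG), an ETS core (CCGGAA) and a TATA box (TATAAA). None of them contains another. An AP-1 site was found in 8 of the 9 genes of the chromosome 9 run and a TATA box in 7, and none held an Sp1 box. These genes had 11 windows, because Mmp7 and Mmp12 had more than 1, and only 1 window of each held the AP-1 site. Counts here are of genes, while the percentages over all windows count each window. The AP-1 match of Mmp20 read TGAATCA, and the others in the run read TGAGTCA or TGACTCA. Among the 15 genes with an entry that lay above background in at least 1 group, none held an AP-1 site, 12 held an Sp1 box and 2 a TATA box. Other genes above background had no entry, among them Mmp2, Mmp9, Adamts4, Adamts5 and Adamts15. Their upstream letters were not searched, so these counts do not cover all detected members. Of all 32851 windows of this length, 6.75% held the AP-1 site, 32.7% the Sp1 box, 12.4% the TATA box and 12% the ETS core, which no window of either set of members held. The GC content was 37.2% to 53.2% in the run and 53.6% to 80.0% in the detected genes with an entry. The other 3 genes with an entry used here, Adamts18, Adamtsl4 and Adamtsl5, were not above background and yet resembled the detected genes. They had 1, 2 and 1 Sp1 boxes, no AP-1 site and a GC content of 65.2%, 64.4% and 70.8%. Letters and signal therefore did not go together across all members. A match is a description of letters and not of a bound factor.

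Upstream sequences from the chromosome 9 run are shown for the collagenase Mmp13 (chr9:7272264-7272513, plus strand) and the stromelysin Mmp3 (chr9:7445572-7445821, plus strand). Those of the detected genes are for the inhibitor Timp3 (chr10:86300162-86300411, plus strand), the membrane-type protease Mmp14 (chr14:54431348-54431597, plus strand), the versican-cleaving Adamts1 (chr16:85803114-85803363, minus strand) and Adamts20 (chr15:94404351-94404600, minus strand). Each reads 5′ to 3′ and ends at the base before the start site, and capitals mark the AP-1 site in the run and the Sp1 box, on either strand, in the others.
Mmp13: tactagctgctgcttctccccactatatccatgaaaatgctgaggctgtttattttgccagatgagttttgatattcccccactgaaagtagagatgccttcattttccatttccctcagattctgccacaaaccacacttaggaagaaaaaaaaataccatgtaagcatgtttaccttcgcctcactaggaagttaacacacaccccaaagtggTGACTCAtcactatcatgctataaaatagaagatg
Mmp3: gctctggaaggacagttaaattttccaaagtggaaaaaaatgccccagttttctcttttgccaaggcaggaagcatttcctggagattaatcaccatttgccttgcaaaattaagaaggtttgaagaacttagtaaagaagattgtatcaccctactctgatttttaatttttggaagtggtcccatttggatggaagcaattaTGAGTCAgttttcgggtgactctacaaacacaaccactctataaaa
Timp3: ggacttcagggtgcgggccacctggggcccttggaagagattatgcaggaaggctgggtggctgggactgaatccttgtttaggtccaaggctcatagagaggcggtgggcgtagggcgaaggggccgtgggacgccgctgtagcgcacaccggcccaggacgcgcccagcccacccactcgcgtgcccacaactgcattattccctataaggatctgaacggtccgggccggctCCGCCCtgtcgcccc
Mmp14: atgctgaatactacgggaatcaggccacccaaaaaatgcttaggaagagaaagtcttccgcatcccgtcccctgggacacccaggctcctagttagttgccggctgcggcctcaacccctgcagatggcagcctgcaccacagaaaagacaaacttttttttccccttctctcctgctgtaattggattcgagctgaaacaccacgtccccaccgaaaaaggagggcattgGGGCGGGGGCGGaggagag
Adamts1: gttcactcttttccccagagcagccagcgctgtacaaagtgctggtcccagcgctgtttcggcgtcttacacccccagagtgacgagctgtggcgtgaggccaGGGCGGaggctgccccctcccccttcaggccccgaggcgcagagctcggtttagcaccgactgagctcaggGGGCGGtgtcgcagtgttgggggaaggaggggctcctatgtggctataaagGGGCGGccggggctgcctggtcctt
Adamts20: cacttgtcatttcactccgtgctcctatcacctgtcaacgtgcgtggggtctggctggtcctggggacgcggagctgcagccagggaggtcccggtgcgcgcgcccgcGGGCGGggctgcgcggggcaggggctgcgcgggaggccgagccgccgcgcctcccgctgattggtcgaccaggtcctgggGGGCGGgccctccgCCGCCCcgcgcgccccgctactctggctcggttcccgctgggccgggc
In Mmp13 the AP-1 site began 35 bases before the start given by RefSeq and in Mmp3 it began 46 bases before. Whether transcripts begin at these starts was not tested. Adamts1 and Adamts20 each held 3 Sp1 boxes and Mmp14 held 2. The Sp1 box was found both in genes that were higher in Flk1-positive cells and in genes that were lower: all 5 of the higher genes with an entry held it, as did 2 of the 3 lower ones (Adamts20 and Mmp11, and not Timp4).

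The labels were checked with Kdr, whose signals were 3309 and 3328 in Flk1-positive cells, 544 and 546 on the WT arrays and 29.5 and 63.8 on the Flk1 KO arrays. Arrays of a group correlated at 0.980 to 0.985 over the probe sets tested. All 6 endothelial markers were higher in Flk1-positive cells, whose summed signals there were 25866 to 26037, against 1723 to 1785 in WT and 474 to 583 in Flk1 KO embryos. The 3 erythroid markers measured summed to 37018 to 38793 in Flk1-positive cells and 306 to 617 in WT embryos. The 5 macrophage and other blood markers summed to 2039 to 2087 and 349 to 351, with Spi1 and Plek past the test, and all 5 were above background in the cells. Mesenchymal markers summed to 1883 to 1890.2 in Flk1-positive cells and 5528 to 6119 in WT embryos, and neuroectoderm markers to 115 to 224 and 7795 to 7966. The 4 cardiomyocyte markers were all lower in the cells and summed to 12276 to 17351 in Flk1 KO against 8961 to 9359 in WT embryos, where none passed the test. Of 4 parietal endoderm markers, Sparc, Col4a1 and Thbd were higher in the cells and Lama1 was lower, and the 4 yolk sac endoderm markers were all lower. The parietal markers summed to 28083 to 29710 in the cells and 8059 to 8584 in WT embryos. The yolk sac markers summed to 5340 to 5352 and 12693 to 14202. In the cells 1 of the 4, Fgb, lay below background, and the others were lower but still above it. There Afp had 2508 and 2557, Ttr 2641 and 2511, Apoa4 182 and 257 and Fgb 20.8 and 15.1. For the transferrin receptor control, the 3′ probe set exceeded the 5′ one by 1.26 and 1.35 (log2) on the arrays of Flk1-positive cells and by 0.94 to 1.05 elsewhere. The beta-actin control went the other way, with 0.26 and 0.29 in the cells and 0.47 to 0.58 elsewhere, and Gapdh lay between -0.37 and -0.32 on all arrays. The part of these cell types and of RNA quality in the differences given here was not tested. In whole embryos, fewer cells of a type and less RNA per cell cannot be told apart.

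Among the inhibitors, Timp3 and Timp1 were higher in Flk1-positive cells and Timp4 was lower. Timp3, the matrix-bound TIMP (probe set 1449335_at), read 1595 and 1366 in Flk1-positive cells, 139.6 and 211 on the WT arrays and 243 and 259 on the Flk1 KO arrays. The cells lay far above both embryo groups, and the Flk1 KO arrays lay slightly above the WT arrays without overlap. The difference from WT embryos was 2.95 ± 0.21, 7.74-fold on this scale (limma adjusted p = 0.000749). Timp1, a secreted inhibitor of most MMPs (1460227_at), had 527 and 520.0 in Flk1-positive cells, 177 and 157 on the WT arrays and 191 and 222 on the Flk1 KO arrays. Its arrays did not overlap between any pair of groups, and the cells exceeded WT embryos by 1.53 ± 0.14 (limma adjusted p = 0.00152).

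Timp2, which besides inhibiting MMPs helps Mmp14 activate Mmp2, had 589 and 598 in Flk1-positive cells, 681 and 650.1 on the WT arrays and 872 and 679 on the Flk1 KO arrays. Both cell arrays lay below every embryo array. By this brightest probe set, the difference between cells and WT embryos was small and did not pass the test (-0.16 ± 0.16, limma adjusted p = 0.512). Timp4, the TIMP known from heart and brain (1450974_at), had 103 and 67.1 in WT embryos, 29.2 and 8.17 in Flk1-positive cells and 22.3 and 20.5 in Flk1 KO embryos, so only the WT arrays lay above background. It was at least 1.33-fold lower in the cells than in WT embryos (fitted difference -1.43 ± 0.30, limma adjusted p = 0.022). This call was lost on leaving out any array except Flk1-positive replicate 1 (adjusted p of 0.0509 to 0.108). The decidual hormone gene Prl8a2 was likewise at 193 and 77.2 in WT embryos, 23.8 and 21.6 in Flk1-positive cells and 33.4 and 16.7 in Flk1 KO embryos. Dcn and Hand1, from the same marker list, did not follow Prl8a2 in Flk1 KO embryos. Dcn had 137 and 107 there and 148 and 96.3 on the WT arrays, an overlap. Hand1 had 755 and 691 against 671 and 544, so its Flk1 KO arrays lay above the WT arrays. Like Prl8a2, both were lower in the cells. The 3 decidua and trophoblast markers measured summed to 718 to 1013 in WT, 815 to 926 in Flk1 KO embryos and 269.9 to 323 in the cells, and their part in the Timp4 values was not tested. The other Timp4 probe set, 1423405_at, had 42.6 and 23.5 on the WT arrays, 50.3 and 48.1 on the Flk1 KO arrays and 9.38 and 9.01 in the cells, all below background, and was lower in the cells (limma adjusted p = 0.034) while its Flk1 KO values lay above the WT values. Timp1, Timp3 and Timp4 each overlap a synapsin gene in the RefSeq table, and Syn1, Syn2 and Syn3 had no call in this comparison (limma adjusted p of 0.34 to 0.739), with signals of at most 97.1.

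Of the 4 membrane-type MMPs measured, Mmp14 was higher in Flk1-positive cells and the others had no call by their brightest probe set. Mmp14, the collagenase of the cell surface that activates Mmp2 (1448383_at), had 1682 and 1936 in Flk1-positive cells, 949 and 984 on the WT arrays and 940.3 and 884 on the Flk1 KO arrays. Both cell arrays lay above all 4 embryo arrays, and the difference from WT embryos was 0.89 ± 0.14 (limma adjusted p = 0.00822). Without Flk1-positive replicate 2 or WT replicate 1 the adjusted p was 0.0503 and 0.0569, above the threshold of 0.05, so the call was lost. Mmp16 had 64.1 and 32.8 in Flk1-positive cells, 59.3 and 116 on the WT arrays and 55.7 and 106 on the Flk1 KO arrays, a wide overlap near background. Mmp17, anchored by a lipid, had 156 and 136, 122 and 145 and 116 and 91.8 in the same order of groups. Mmp24, known from neurons, had 57.7 and 45.6, 64.2 and 101 and 51.0 and 48.2, with both WT arrays above the other 4. None of these 3 genes passed the test: Mmp17 differed from WT embryos by 0.11 ± 0.17, and Mmp16 and Mmp24, below background in the cells, by gaps of at least 1.34-fold and 1.30-fold (limma adjusted p = 0.658, 0.3 and 0.148).

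Both gelatinases, which cut denatured collagen and basement membrane collagen, were higher in Flk1-positive cells. Mmp2 (1416136_at) had 1993 and 2130.4 in Flk1-positive cells, 976 and 944 on the WT arrays and 1296 and 979 on the Flk1 KO arrays. It lay well above background everywhere, with the cells above all embryo arrays by 1.09 ± 0.17 over WT (limma adjusted p = 0.00892). The call was lost without WT replicate 1 or 2 (adjusted p = 0.0528 and 0.0575). Mmp9 (1416298_at), also a product of macrophages and neutrophils, had 440.4 and 451 in Flk1-positive cells, 94.2 and 91.9 on the WT arrays and 36.8 and 50.3 on the Flk1 KO arrays. The 3 groups were ordered without overlap, and the Flk1 KO mean was not above background. Flk1-positive cells were 2.03 ± 0.15 above WT embryos, 4.07-fold on this scale (limma adjusted p = 0.000827). Among the blood markers, Spi1 was 1.72 ± 0.14 higher in the same comparison and Plek, below background in WT embryos, at least 18.3-fold higher, and Csf1r, the receptor that defines macrophages, differed by 0.27 ± 0.19 without a call.

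Of the remaining MMPs, 2 lay above background. Mmp11, a stromelysin of mesenchyme (1417234_at), had 148 and 169 on the WT arrays, 98.7 and 189 on the Flk1 KO arrays and 40.1 and 15.4 in Flk1-positive cells. The cells lay below background and below every embryo array, and Mmp11 was at least 2.28-fold lower than in WT embryos (fitted difference -1.91 ± 0.35, limma adjusted p = 0.0149). The call was lost without Flk1-positive replicate 2, WT replicate 1 or WT replicate 2 (adjusted p = 0.0565, 0.0667 and 0.0807). Mmp23 had 113 and 38.3 in Flk1-positive cells, 74.6 and 89.2 on the WT arrays and 73.0 and 81.3 on the Flk1 KO arrays, and the arrays of the cells spanned those of the embryos (-0.20 ± 0.38, no call).

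Of the 7 measured ADAMTS enzymes that cut proteoglycans, 4 were higher in Flk1-positive cells and 2 were lower (12.5% and 18% of all genes), and Adamts8 was not above background. Adamts1 (1450716_at), which cuts versican and aggrecan, had 1681 and 1940.3 in Flk1-positive cells, 567 and 449 on the WT arrays and 697 and 698 on the Flk1 KO arrays. Its groups did not overlap, with Flk1 KO between the other 2 groups, and the cells were 1.80 ± 0.17 above WT embryos (limma adjusted p = 0.00155). Adamts5 (1456404_at), a strong aggrecanase that lies beside Adamts1 on chromosome 16 with no protein-coding gene between them, had 201 and 212 in Flk1-positive cells, 44.9 and 44.5 on the WT arrays and 54.4 and 34.0 on the Flk1 KO arrays. The embryo arrays were not above background, so Adamts5 was at least 2.89-fold higher in the cells (fitted difference 1.78 ± 0.18, limma adjusted p = 0.00216). Adamts4 (1452595_at), the other classical aggrecanase, had 654 and 549 in Flk1-positive cells, 164 and 178 on the WT arrays and 143 and 124 on the Flk1 KO arrays. The cells lay above all embryo arrays and the Flk1 KO arrays below the WT arrays. Flk1-positive cells exceeded WT embryos by 1.69 ± 0.15 (limma adjusted p = 0.00149). Adamts9 (1437785_at), a versican-cleaving enzyme of the developing heart and vessels, had 986 and 981 in Flk1-positive cells, 578 and 589 on the WT arrays and 730.3 and 758 on the Flk1 KO arrays. These groups did not overlap, and the cells were 0.73 ± 0.12 above WT embryos (limma adjusted p = 0.00996). Adamts9 had no call when any 1 of the 4 Flk1-positive and WT arrays was omitted (adjusted p of 0.0566 to 0.0657).

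Adamts20 (1456901_at), a versican-cleaving enzyme known from melanoblast migration and palate closure, went the other way. It had signals of 481 and 489.9 on the WT arrays, 469.6 and 569 on the Flk1 KO arrays and 79.1 and 72.2 in Flk1-positive cells. The cells lay just above background and below every embryo array. The difference from WT embryos was -2.38 ± 0.15 (limma adjusted p = 0.000549). Adamts15 (1427056_at) had 155 and 112 on the WT arrays, 148 and 171 on the Flk1 KO arrays and 46.7 and 56.1 in Flk1-positive cells. It was at least 1.94-fold lower in the cells, which were not above background (fitted difference -1.07 ± 0.19, limma adjusted p = 0.0126). Without Flk1-positive replicate 1 or WT replicate 1 the adjusted p of Adamts15 was 0.0638 and 0.0618.

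No other ADAMTS or ADAMTS-like gene passed the test in Flk1-positive cells. Adamts3, a procollagen N-proteinase that also matures the lymphatic growth factor VEGF-C, had 169.9 and 201 in Flk1-positive cells, 132 and 189.6 on the WT arrays and 219 and 181 on the Flk1 KO arrays. Adamts10, which associates with fibrillin, had 321 and 366, 338 and 308 and 365 and 331, and Adamts16 had 237 and 153, 171 and 140.5 and 214 and 186, in the same order of groups. In these 3 genes the cells overlapped the WT embryos. Adamts7, which cuts the cartilage protein COMP, had 113 and 104 in Flk1-positive cells, 141 and 128 on the WT arrays and 211 and 65.8 on the Flk1 KO arrays, where its 2 Flk1 KO arrays were the lowest and the highest of all 6. Adamts12, which cuts the same protein, had 70.2 and 128, 129.7 and 83.0 and 127 and 113, also with overlap. Adamts6 had 66.0 and 85.0 in WT embryos and 32.2 and 32.9 in the cells, both cell arrays being below background, with 31.1 and 82.6 in Flk1 KO embryos (a gap of at least 1.22-fold between cells and WT embryos, limma adjusted p = 0.126). Fitted on the arrays of these groups alone, that difference of Adamts6 passed the test (adjusted p = 0.0252). Leaving out either Flk1 KO array gave the same value, because a lone array adds nothing to the spread. Adamtsl2, which binds a TGF-beta carrier protein, had 235 and 78.6 in the cells, 191 and 179 in WT and 217 and 98.4 in Flk1 KO embryos, with the cell arrays on both sides of the WT arrays. Adamtsl3 lay at the background level, with 51.7 and 65.8 in the cells, 51.0 and 30.3 in WT and 54.1 and 55.8 in Flk1 KO embryos.

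**Figure D2:**
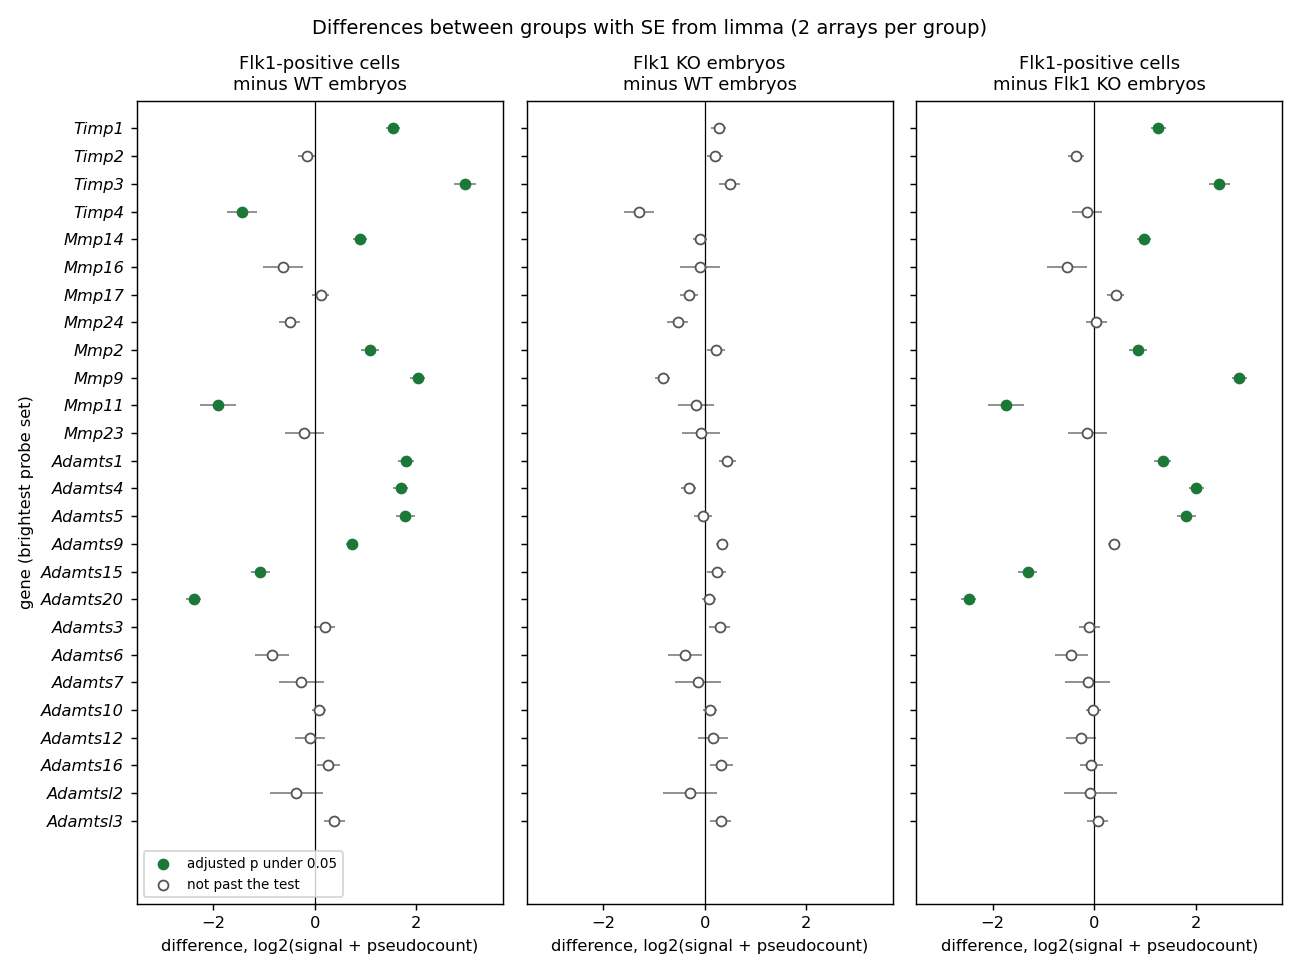
Differences of the 26 detected member genes on the log2(signal + 21.6) scale with SE from limma, for Flk1-positive cells minus WT embryos (left), Flk1 KO minus WT embryos (middle) and Flk1-positive cells minus Flk1 KO embryos (right). Filled points have an adjusted p under 0.05: 13 on the left, none in the middle and 11 on the right.

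Where several probe sets of a gene were tested, they mostly ran the same way. The 4 probe sets of Timp3 were all higher in Flk1-positive cells, by 1.77 to 2.96, as were all 3 of Mmp14 (0.72 to 0.94), both of Mmp2 (1.09 and 1.10), both of Mmp9 (2.03 and 2.78) and the 3 of Adamts5 that were tested (1.08 to 2.52). These are fitted values, and for 1449334_at of Timp3, the dimmer probe set of Mmp9 and Adamts5 the WT mean was below background. Over all 33820 probe sets tested, 11.6% were higher and 14.4% lower. For Adamts9, 2 of 3 probe sets passed and for Adamts4 1 of 2, and both Timp4 probe sets were lower. In 2 genes the brightest probe set had no call and another did. Timp2 was lower by its probe set 1454677_at, with 298 and 287 in Flk1-positive cells against 552 and 532 in WT embryos (-0.85 ± 0.13, limma adjusted p = 0.00776), and none of the other 4 tested passed. On each of the 5 tested, both cell arrays lay below every WT and Flk1 KO array, with differences from WT embryos of -0.85 to -0.16. Mmp16 was lower by 2 of its 4 probe sets: 1440161_at had 8.56 and 12.9 in the cells and 66.6 and 56.8 in WT embryos (at least 1.05-fold, limma adjusted p = 0.0055), and 1437568_at had 6.67 and 7.43 and 37.4 and 103 (at least 1.09-fold, limma adjusted p = 0.0258). The transcripts read by each probe set were not analysed here.

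**Figure D3:**
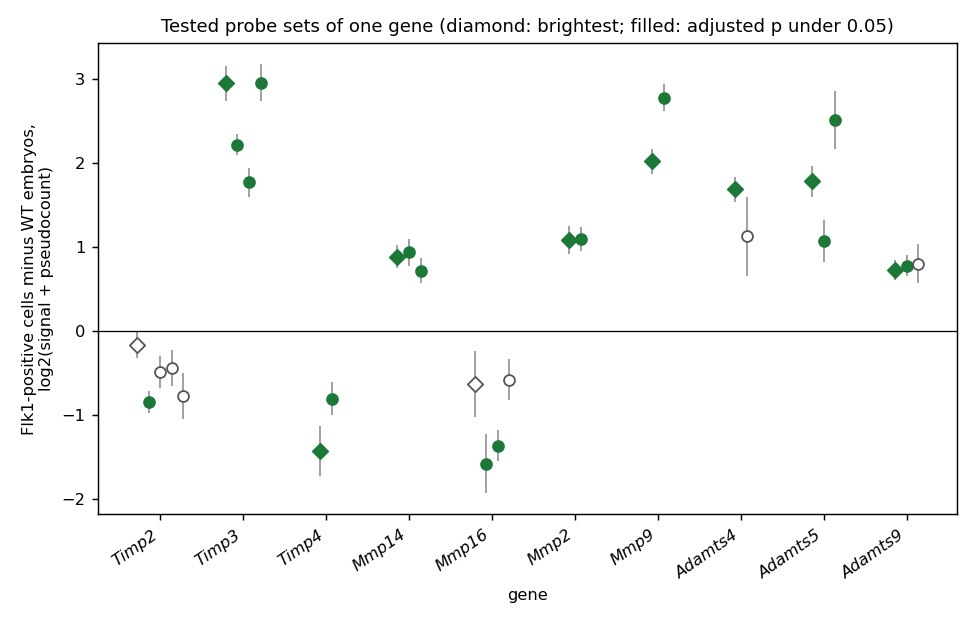
Flk1-positive cells minus WT embryos on the log2(signal + 21.6) scale for each tested probe set of the member genes with several probe sets and at least 1 call, with SE from limma. Diamonds are the brightest probe set of a gene and filled symbols have an adjusted p under 0.05; the probe sets of a gene lie on the same side of 0.

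The comparison of Flk1 KO with WT embryos asks what the loss of the receptor changes. It found no member past the test, and this held under every alternative setting tried. Mmp9 had the smallest adjusted p of the members: its Flk1 KO signals of 36.8 and 50.3 lay below both WT arrays (94.2 and 91.9), a gap of at least 1.45-fold to the background level that did not pass the test (fitted difference -0.82 ± 0.15, limma adjusted p = 0.237). Its other probe set, 1448291_at, read 4.60 and 3.85 in Flk1 KO and 49.8 and 35.3 in WT embryos, all below background, so no fold is given (limma adjusted p = 0.11). Timp4 and Mmp24 were the other 2 members with lower values at an unadjusted p under 0.05. Their Flk1 KO means were below background, which gives gaps of at least 1.33-fold and 1.30-fold. Adamts1 (0.45 ± 0.17) and Adamts9 (0.34 ± 0.12) were the 2 with higher values at that level, and limma adjusted p-values of Timp4, Mmp24, Adamts1 and Adamts9 were 0.364, 0.591, 0.551 and 0.54. The other probe sets of Adamts9 overlapped between these groups (0.02 ± 0.13 and 0.08 ± 0.23). Timp3 probe set 1449334_at read 83.5 and 115 in Flk1 KO and 22.7 and 39.4 in WT embryos, the latter below background, a gap of at least 1.52-fold (limma unadjusted p = 0.00211, adjusted p = 0.24), while 2 of the other Timp3 probe sets overlapped. The median difference was 0.09 over the 31 members and 0.00 over all genes. The Flk1 KO and WT arrays did not overlap for 14 of the 31 genes, 7 in each direction, where 19.1% of all genes tested lay above and 18.2% below. Side by side, 7 of the 9 genes higher in Flk1-positive cells had Flk1 KO minus WT values of 0.49 for Timp3, 0.45 for Adamts1, 0.34 for Adamts9, 0.27 for Timp1, 0.23 for Mmp2, -0.08 for Mmp14 and -0.32 for Adamts4. Of the other 2, Mmp9 has only the bound above and Adamts5 was below background in both embryo groups. Those comparisons share the WT arrays. In the same comparison Tie1 and Esam of the 6 endothelial markers passed the test, and all 6 lay below WT embryos without overlap. The part of a smaller endothelial share in the member values was not tested.

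Flk1-positive cells were set against Flk1 KO embryos as the groups that differ most in endothelial markers. Of 31 members, 8 were higher and 3 lower, where 13.2% of all genes tested were higher and 19.5% lower, and the medians were -0.06 over the members and -0.08 over all genes. Mmp9 led with 2.85 ± 0.15 (limma adjusted p = 0.000302), and because its Flk1 KO mean was not above background it was at least 5.91-fold higher. For 10 of the 31 the cell arrays lay above both Flk1 KO arrays (29.3% of all genes) and for 4 below (40.2% of all genes). After Mmp9 came Timp3 (2.46 ± 0.21), Adamts4 (2.01 ± 0.15), Adamts5 (at least 2.89-fold), Adamts1 (1.35 ± 0.17), Timp1 (1.26 ± 0.14), Mmp14 (0.97 ± 0.14) and Mmp2 (0.86 ± 0.17). Adamts20 (-2.47 ± 0.15), Adamts15 (at least 2.29-fold) and Mmp11 (at least 2.02-fold) were lower. Adamts9, called against WT embryos, did not pass here by its brightest probe set (0.39 ± 0.12, limma adjusted p = 0.0606). It passed under 4 of the 10 other settings (adjusted p of 0.00559 to 0.0373), and its probe set 1430352_at passed in the comparison itself (0.76 ± 0.13, limma adjusted p = 0.0097). Timp4 did not pass (limma adjusted p = 0.754), with both groups below background. Its probe set 1423405_at did (limma adjusted p = 0.00881), also below background in both. Timp2 and Mmp16, without a call by the brightest probe set, were lower by dimmer ones. These were 1454677_at of Timp2 (-0.96 ± 0.13, limma adjusted p = 0.0047) and 1437568_at and 1440161_at of Mmp16 (at least 1.60-fold and 1.12-fold, limma adjusted p = 0.00903 and 0.00413). The call of Mmp2 was lost without Flk1-positive replicate 1 or 2 (adjusted p = 0.0625 and 0.0798), and that of Mmp11 without Flk1-positive replicate 2 or Flk1 KO replicate 2 (adjusted p = 0.0677 and 0.0709). Other genes passed on leaving out 1 Flk1 KO array: Adamts6 without replicate 1 (-0.94, adjusted p = 0.0348) and Adamts7 without replicate 2 (-0.84, adjusted p = 0.0281).

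Other genes of the pathway were counted from lists of regulators and substrates. Of 22 regulators listed, 20 were tested, and 7 were higher and 4 lower in the cells than in WT embryos, beside 12.5% and 18% of all genes. Their median difference was 0.22. The metalloprotease Adam15 (at 1325 and 1382 against 202 and 247, a difference of 2.49 ± 0.15), the urokinase receptor Plaur (1.41 ± 0.22), the hyaluronan receptor Cd44 (1.30 ± 0.20) and Itgb3, whose integrin can hold active Mmp2 at the cell surface (at least 3.29-fold), were among the higher, with the collagen chaperone Serpinh1 (0.98 ± 0.15), the sheddase Adam10 (0.87 ± 0.14) and thrombospondin 1, Thbs1 (0.88 ± 0.16). Lower were the plasminogen activator Plat (at 259 and 164 against 969 and 953, -2.11 ± 0.23), the proprotein convertase Pcsk5 (-1.16 ± 0.16), the clearance receptor Lrp1 (-1.01 ± 0.13) and Fbln1, a cofactor of Adamts1 (-0.74 ± 0.14). The membrane-anchored MMP inhibitor Reck had 871 and 939.6 in the cells and 882 and 889 in WT embryos and no call (0.03 ± 0.14). Their limma adjusted p-values lay between 0.000521 and 0.0174, leaving out Reck at 0.901.

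Of 18 substrates listed, 17 were tested, and 5 were higher and 6 lower, beside 12.5% and 18% of all genes. Their median difference was -0.22. Higher were basement membrane and adhesive proteins: the collagen IV chains Col4a1 (1.75 ± 0.12) and Col4a2 (2.11 ± 0.15), Nid1 (3.81 ± 0.16) and Fn1 (1.45 ± 0.14), together with the hyaluronan link protein Hapln1 (2.48 ± 0.16). Col4a1 and Lama1 are also among the parietal endoderm markers. Lower were the proteoglycans Vcan, Bcan, Ncan and Dcn, the cartilage collagen Col2a1 (-2.99 ± 0.20) and the laminin chain Lama1 (-0.68 ± 0.16). Versican, the substrate shared by several of these ADAMTS enzymes, had Vcan at 905 and 955 in Flk1-positive cells, 2299 and 2666 on the WT arrays and 3018 and 3574 on the Flk1 KO arrays (-1.39 ± 0.15, limma adjusted p = 0.00285). The cells lay below every embryo array. In Flk1 KO against WT embryos none of the 20 regulators or 17 substrates passed the limma test. With an unadjusted p under 0.05, 2 regulators and 4 substrates had higher values (2.61% of all genes) and 2 substrates had lower values (3.68% of all genes). The smallest adjusted p was that of Col3a1 (1.33 ± 0.19, limma adjusted p = 0.149).

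**Figure D4:**
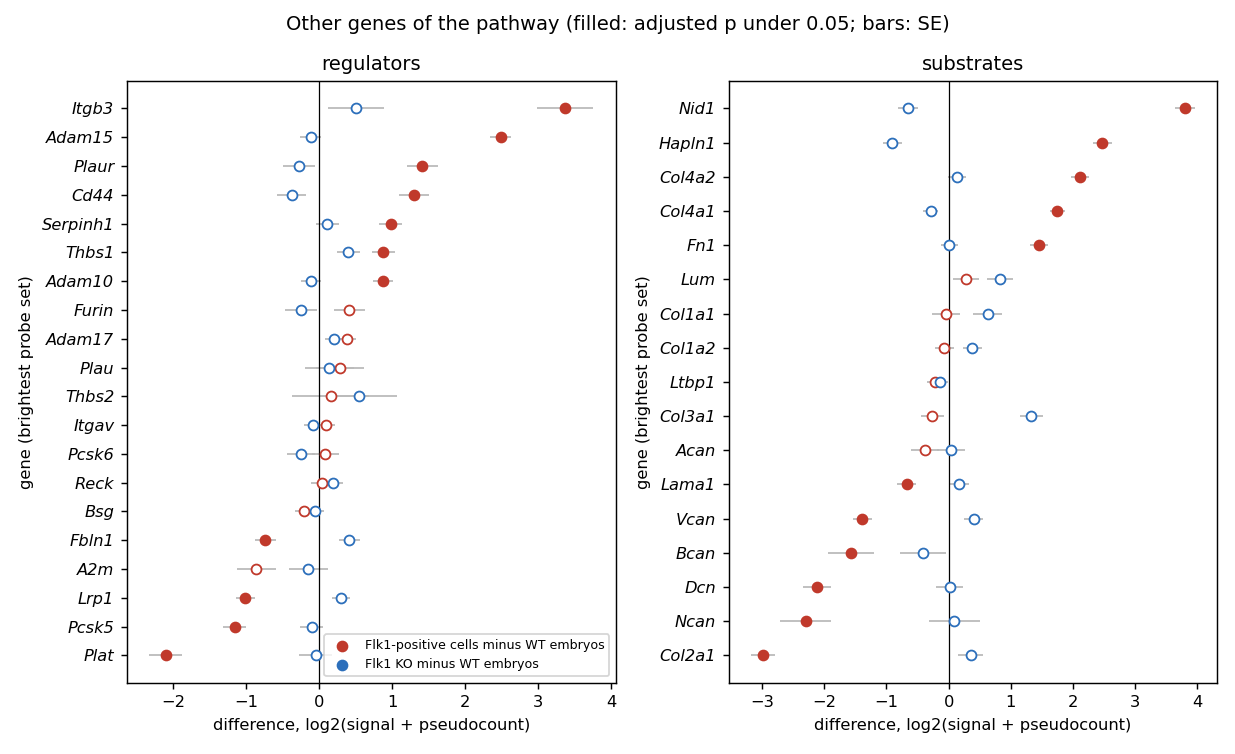
Differences on the log2(signal + 21.6) scale, with SE from limma, of the regulators (left) and substrates (right) of these proteases in Flk1-positive cells minus WT embryos (red) and in Flk1 KO minus WT embryos (blue). Filled points have an adjusted p under 0.05: 11 regulators and 11 substrates in red, and none in blue.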

How the data were processed

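The labels' protocols give biotin labelling of total RNA and hybridisation to Affymetrix arrays, and the design text mentions GeneSpring. The deposited signal is linear, one value for each probe set, and was scaled by the authors to a trimmed mean of 500.003 on each array, with a floor of 1. No source used here names the program.

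Gene names came from the platform annotation, in which 34958 probe sets have 1 symbol, 932 several and 9211 none. All 42 member symbols were found in the RefSeq gene table by gene ID, and none had changed. After removal of 64 control probe sets, 21.6 (the 25th percentile over all arrays) was added to each signal before taking log2, and the 33820 probe sets whose mean log2 value reached that of this percentile were tested. limma 3.58.1 (R 4.3.3) fitted a mean for each group to the 6 arrays together and moderated the variances (3 residual plus 2.49 prior degrees of freedom). Tests were two-sided. P-values were adjusted by Benjamini-Hochberg over the 33820 probe sets, and 0.05 was the threshold. The probe set with the highest mean stood for its gene. Background was the mean over arrays of the 95th percentile of the 80 probe sets for olfactory or vomeronasal receptors (6.30 on the log2 scale). A fold written as "at least" runs from the brighter group's mean to this level, because the dimmer group's mean was under it. It describes group means and is not a confidence limit, and single arrays of the groups can overlap.

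Every member above background in a group is named. Members and lists were chosen with earlier results of these data known. Alternatives were 10 other settings and the omission of each of the 6 arrays. The procedure was tested on simulated data. The number of arrays limits the precision. Matplotlib 3.10.9 under Python 3.11.15 drew the plots.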

Additional observations from a re-analysis of the deposited data

How the results depend on the processing

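Counts of member genes past the test moved by a few genes with the 10 other settings. With the median over the probe sets of a gene, Mmp16 and Adamts6 also passed as lower against WT embryos. In Flk1-positive cells against WT embryos, 8 to 10 genes were higher and 3 to 6 lower, and against Flk1 KO embryos 8 to 10 were higher. The count lower against Flk1 KO embryos went from 3 to 5 with the median over the probe sets of a gene, where Timp2 and Mmp16 passed as well, and was 3 with every other one of these settings. Leaving out single arrays gave 6 to 9 higher and 1 to 4 lower against WT embryos, the lowest counts being without WT replicate 1, and 2 lower without WT replicate 2. Against Flk1 KO embryos it gave 7 to 8 higher and 2 to 4 lower. In Flk1 KO against WT embryos all counts were 0, in each of these runs. No called difference of a named gene changed sign.

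Against WT embryos, 7 of the 13 calls were kept whichever array was left out (Timp1, Timp3, Mmp9, Adamts1, Adamts4, Adamts5 and Adamts20), and 12 were kept under every other setting that tested them. The exception was Timp4, with an adjusted p of 0.0509 on the arrays of those groups alone. Against Flk1 KO embryos, 9 of the 11 calls were kept in every omission. With the replicate number as a block the counts were 9 higher and 4 lower against WT embryos, 8 and 3 against Flk1 KO embryos and 0 and 0 between the embryo groups. Same-numbered arrays deviated together only weakly (correlations of 0.0079 to 0.029 between groups), and the block changed no call. The labels do not say whether the numbers pair the arrays, and these correlations cannot settle it.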
